A study of Mus musculus with 2 samples.

Results

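The Col10a1-rich spots described here were small regions of mouse tibia fracture callus that were selected on a single gene. All spots with at least 1000 unique molecular identifiers (UMIs, counted RNA molecules) were ranked by Col10a1 UMIs per 1000000 UMIs of the spot (CPM), and the top 5% of both tissue sections together were taken. They numbered 296 of 5920 kept spots, and 6380 spots lay under tissue. The lowest spots inside the cutoff had 1062.78, 1063.83 and 1065.53 CPM of Col10a1, and the highest spots outside it had 1059.32, 1057.27 and 1056.15 CPM. The Col10a1 level itself is therefore a description of the choice and not a result.

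The study compared fracture healing in control mice and in mice that lose Nf1, the gene for the RAS inhibitor neurofibromin, in the periosteum. The control callus was labelled Nf1+/flox, with no Cre named. The mutant callus, here Nf1Postn, was labelled Postn-cre;Nf1flox/-, so that Cre under the periostin promoter acts in the periosteum and its descendants, and the other Nf1 allele is null in every cell. Mice were female and labelled as 8 weeks old, the distal tibia was fractured and pinned, and calluses were taken after 10 days and went through formalin, 3 days of 14% EDTA and paraffin. Control and mutant callus shared 1 block, of which 2 sections were measured with probe-based Visium spatial transcriptomics, in which spots lie 100 µm apart and can each hold several cells. The labels call the sections biological replicates, but each genotype is 1 callus, so no test between genotypes was possible and the sections show only the spread within the block. All intervals are exact 95% intervals that cover counting error only. Spots under tissue held 17026501 UMIs in section 1 and 18108050 in section 2, and the median kept spot held 4631.5 and 4523.5 UMIs. In such regions, more cells of a type and more RNA per cell cannot be told apart.

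In endochondral repair, chondrocytes first lay down a cartilage of type II collagen and aggrecan, then stop dividing, enlarge and switch to type X collagen, the product of Col10a1. Cells entering hypertrophy secrete Indian hedgehog (Ihh), which signals through the receptor Ptch1 and the transcription factor Gli1 in neighbouring cells and, in the growth plate, forms a loop with parathyroid hormone-related protein (Pthlh) and its receptor Pth1r. Late hypertrophic cartilage mineralizes, makes the collagenase Mmp13 and is invaded by vessels, osteoclasts and bone-forming cells.

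The gene models in the count tables (mm39, the GRCm39 assembly) placed Col10a1 at chr10:34265977-34273082, Ihh at chr1:74984474-74990832 and Mmp13 at chr9:7272514-7283332. The 250 bases before the canonical start of each gene in GRCm39 are shown because these genes mark the region, with matches to a RUNX motif (TGTGGT, or ACCACA on the other strand) and a FOX motif (TGTTTAC, or GTAAACA) in capitals. The Col10a1 window was chr10:34265721-34265970 on the plus strand, the Ihh window chr1:74990838-74991087 on the minus strand and the Mmp13 window chr9:7272264-7272513 on the plus strand.
Col10a1: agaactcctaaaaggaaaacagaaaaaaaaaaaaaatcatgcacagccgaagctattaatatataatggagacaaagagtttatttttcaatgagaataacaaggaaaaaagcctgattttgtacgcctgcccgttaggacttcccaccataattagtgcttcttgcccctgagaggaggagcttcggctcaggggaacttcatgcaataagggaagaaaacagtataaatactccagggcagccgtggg
Ihh: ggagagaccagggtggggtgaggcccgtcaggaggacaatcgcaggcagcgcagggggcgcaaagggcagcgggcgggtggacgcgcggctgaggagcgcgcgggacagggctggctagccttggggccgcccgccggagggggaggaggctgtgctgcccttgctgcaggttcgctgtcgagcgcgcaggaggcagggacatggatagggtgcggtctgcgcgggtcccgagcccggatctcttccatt
Mmp13: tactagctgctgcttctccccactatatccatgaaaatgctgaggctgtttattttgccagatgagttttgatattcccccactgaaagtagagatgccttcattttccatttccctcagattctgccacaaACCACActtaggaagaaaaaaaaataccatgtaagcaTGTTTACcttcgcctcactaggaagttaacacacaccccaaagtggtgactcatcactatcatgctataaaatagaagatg
The Mmp13 window held 1 match to each motif, which began 118 and 81 bases before the start, and the other windows held none. Of 21770 such windows of protein-coding genes, 13.02% held the RUNX letters and 2.72% the FOX letters, on either strand. A match is only a match of letters in this window.

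Members lay almost entirely in the control callus. In section 1, 231 of 1655 kept control spots were members, or 14.0% (12.3 to 15.7), against 3 of 1126 kept Nf1Postn spots, or 0.266% (0.0550 to 0.777). In section 2, 61 of 1695 control spots were members, or 3.60% (2.76 to 4.599), against 1 of 1443 Nf1Postn spots, or 0.0693% (0.00175 to 0.386). Sections of the same control callus thus differed in their share of members by more than counting error, and so did control and Nf1Postn spots within each section. Over both sections, control spots made up 292 of the 296 members.

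**Figure D1:**
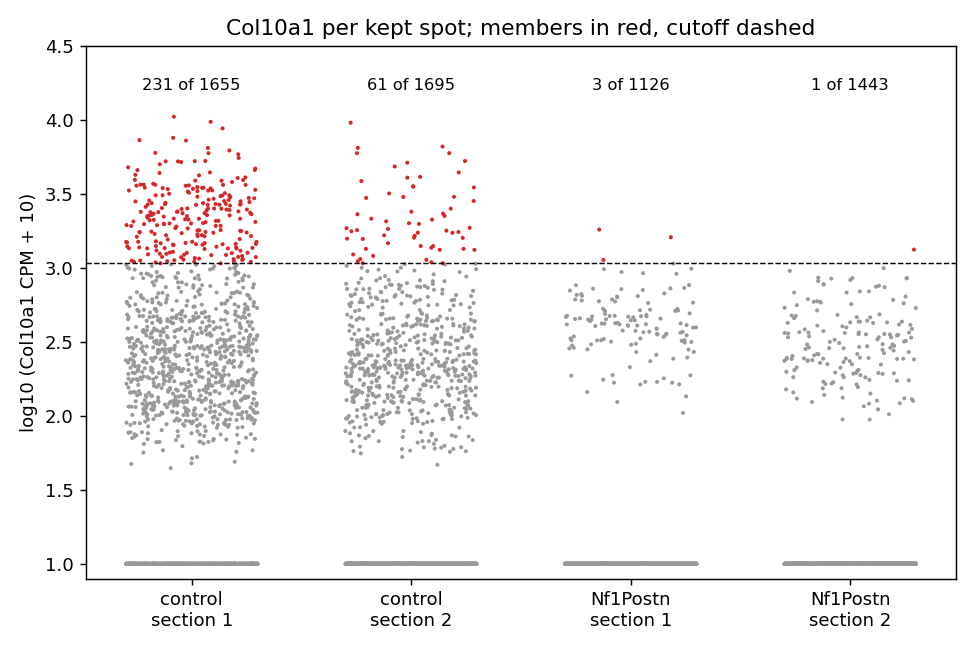
Col10a1 level of each kept spot (log10 of CPM + 10) by genotype and section, with members in red, other spots in grey, the cutoff as a dashed line and the number of members of kept spots above each column. Members numbered 231 and 61 in the control columns and 3 and 1 in the Nf1Postn columns.

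Control members were shallower than the other kept control spots, with medians of 4326.5 and 7006.5 UMIs, and the cause was not tested. In a shallow spot 2 Col10a1 UMIs were enough, and 14 members had no more than that, 10 of them control. Another 150 members had 10 or more Col10a1 UMIs. Members held 58.3% of all Col10a1 UMIs of the kept spots in section 1 and 33.9% in section 2.

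The label of hypertrophic cartilage was checked on the other 2 marker genes, which the choice did not use. After every spot was thinned to 1000 UMIs, an Ihh UMI remained in 11.6% of control members (8.20 to 15.9) and in 1.31% of other control spots (0.936 to 1.78). In the top 5% of control spots by the muscle gene Ckm, taken as a region that should lack the gene, the thinned share was 0.599% (0.0152 to 3.29) at a median of 4097.5 UMIs. Unthinned, 41.1%, 7.62% and 2.40% of these spots had an Ihh UMI. Mmp13 remained in 45.9% of thinned control members (40.1 to 51.8), 29.9% of other control spots (28.3 to 31.6) and 8.38% of Ckm-rich control spots (4.66 to 13.7). Both markers were thus above the muscle level in control members, with Ihh far more restricted to them than Mmp13.

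The 4 Nf1Postn members did not carry the label. Each had 2 Col10a1 UMIs, no Ihh and no Mmp13 UMI, between 3 and 6 Col2a1 UMIs and between 3 and 12 Ckm UMIs, at 1108, 1781, 1249.5 and 1516 UMIs in all. Pooled over the 4 spots, the upper bound was 652 CPM for Ihh and for Mmp13, against 133.9 and 862.1 CPM in control members. At this depth the lack of Ihh UMIs thus decides nothing. Col2a1 had 3006 CPM (1751 to 4814), against 106931 CPM in control members. These 4 spots are Col10a1-rich by the cutoff only, and 292 of the 296 spots behind the comparisons below are control spots.

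On the map of the sections, read by eye and not counted, many members lay in bands beside the Col2a1-rich cartilage. In section 1, 3 patches of touching members of 85, 69 and 63 spots held 217 of the 234 members (92.7%). In section 2, the largest patches had 18, 12 and 12 spots and held 42 of 62 members (67.7%). The spots next to a control member were themselves members in 65.4% of neighbour pairs in section 1 and 52.3% in section 2, against 14.0% and 3.60% of all kept control spots. Lone members numbered 16 in both sections together.

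**Figure D2:**
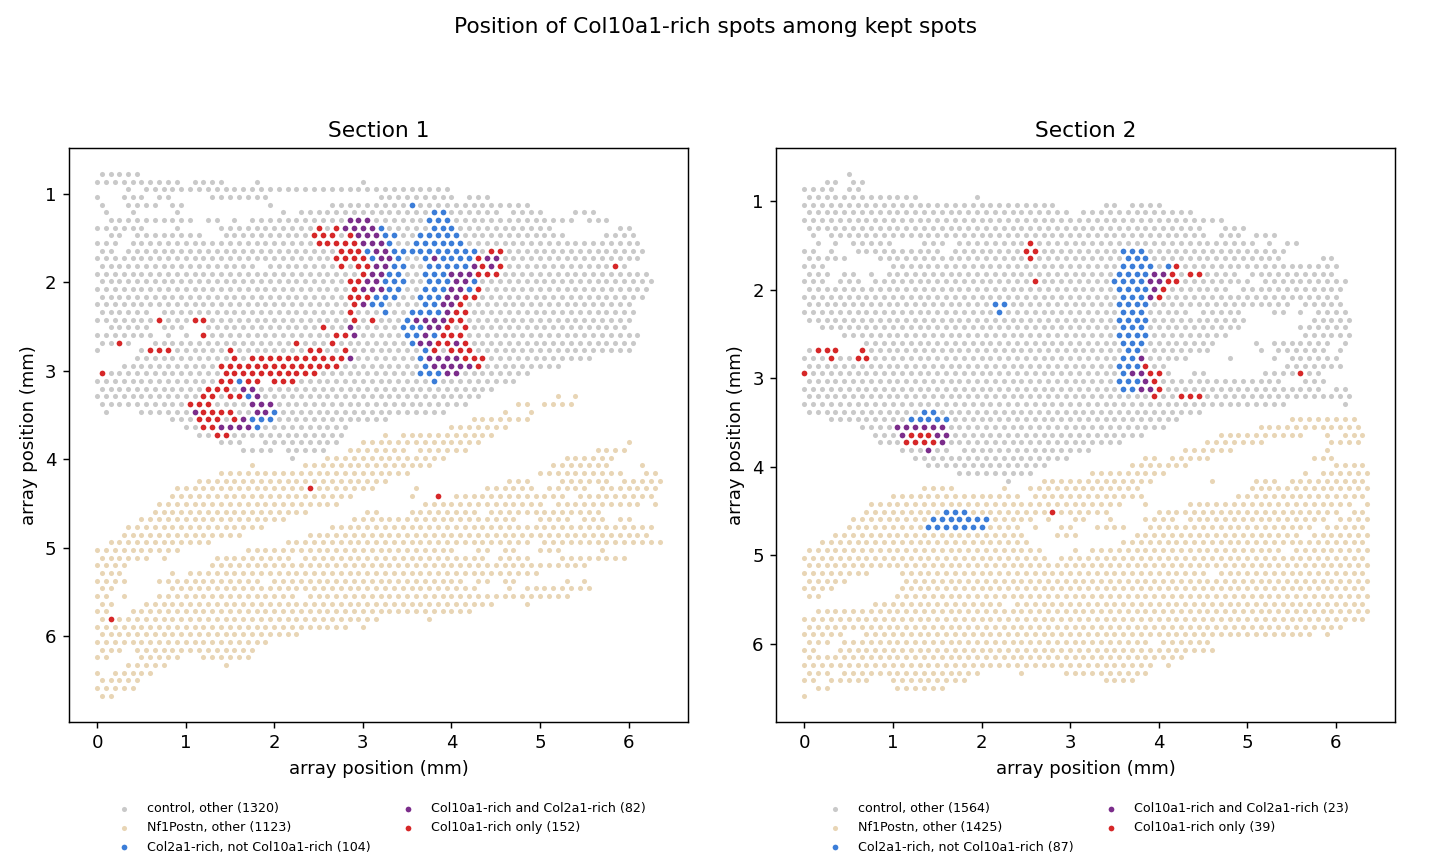
Position of kept spots in both sections on the array (axes in mm), coloured as control (grey), Nf1Postn (tan), Col2a1-rich but not Col10a1-rich (blue), both (purple) and Col10a1-rich only (red), with the number of spots in the legend. In the control callus many red and purple spots lie beside the blue cartilage by eye, and the 17 blue Nf1Postn spots of section 2 have no member beside them.

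Each gene was compared between members and all other kept spots as pooled CPM, and was counted as higher or lower when the ratio reached 2-fold the same way in both sections. Of 11830 genes that had 50 or more UMIs per section, 86 were higher (0.727%) and 462 lower (3.91%), and the median log2 ratio over all of them was -0.22. When only genes whose counting interval left out no change in each section were kept, a rule added after seeing the data, 72 higher and 250 lower genes were left. Other kept spots include the whole Nf1Postn callus and much muscle, so the comparison was repeated among control spots alone, where 59 of 11284 genes were higher (0.523%) and 249 lower (2.21%), and 56 of the 59 were among the 86. The rule on counting intervals left 53 higher and 85 lower genes in that comparison. The lists below were chosen with earlier results of these data known, so their counts are descriptions beside these background shares.

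The hedgehog ligand led the genes other than Col10a1. Ihh had 126.8 CPM in members and 11.4 CPM in other spots in section 1, and 160.2 and 7.91 CPM in section 2. Its pooled log2 ratio was 3.81 (3.54 to 4.07), and it was 3.51 among control spots alone. Hhip, a membrane protein that binds and restrains hedgehog ligands, had 86.4 against 15.2 CPM in section 1 and 85.7 against 8.93 CPM in section 2, with a log2 ratio of 2.86 (2.55 to 3.16). The receptor and target Ptch1 had 209.6 against 94.4 CPM and 249.6 against 82.6 CPM, and its log2 ratio was 1.302 (1.13 to 1.47), or 1.02 among control spots alone, where it was not 2-fold in both sections. Gli1, the transcription factor that reports hedgehog signaling, was near its level elsewhere in section 1, at 78.3 against 75.5 CPM, and higher by less than 2-fold in section 2, at 108.0 against 66.2 CPM. Its pooled log2 ratio was 0.25 (-0.03 to 0.52). Members were thus rich in the ligand, in its binding inhibitor and, against all other kept spots, in Ptch1. The Gli1 levels of control members in the sections, 78.5 CPM (62.9 to 96.9) and 108.7 (72.8 to 156), did not differ beyond counting error.

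Among the other genes of the loop, Pth1r had 725.0 against 356.1 CPM in section 1 and 789.8 against 243.9 CPM in section 2. Its log2 ratio of 1.31 (1.22 to 1.41) became 1.07 among control spots alone, below 2-fold in 1 section. Its ligand gene Pthlh had only 3 UMIs in members and a log2 ratio of -2.09 (-4.38 to -0.53), and its call was lost under that rule on counting intervals. Gas1, a surface co-receptor for hedgehog ligands, was lower, at 196.1 against 394.7 CPM and 145.3 against 406.2 CPM. Of the 14 listed genes of hedgehog and PTHrP signaling, all tested, 4 were higher and 2 lower, with a median log2 ratio of 0.19. Among control spots alone the balance turned, with Ihh and Hhip higher and Pthlh, Gas1 and the transcription factor gene Gli3 lower of 13 tested, and a median of 0.13.

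The hypertrophy list of 10 genes had 5 higher and none lower and a median log2 ratio of 1.16, where Col10a1 was fixed by the choice. Panx3, a channel gene of prehypertrophic and hypertrophic chondrocytes, had 177.2 against 83.2 CPM in section 1 and 197.5 against 49.9 CPM in section 2. Mmp13 had 897.6 against 440.7 CPM in section 1 and 696.7 against 304.7 CPM in section 2, a log2 ratio of 1.22 (1.13 to 1.31) that was 0.99 among control spots alone. In that comparison 2 of the 10 genes, Col10a1 and Ihh, were higher. The transcription factors Mef2c and Mef2d, which drive hypertrophy, had log2 ratios of 0.30 (0.08 to 0.52) and 0.42 (0.23 to 0.60).

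Members were still cartilage by their matrix genes. Of 15 tested genes of the cartilage matrix list, 9 were higher and none lower, with a median log2 ratio of 1.71, and 8 of 15 were higher among control spots alone. Col2a1, type II collagen, had 105103 CPM in members and 27174 CPM elsewhere in section 1, and 112316 and 17672 CPM in section 2, a log2 ratio of 2.27 (2.26 to 2.27). Matn1, a filament-forming matrix protein, had the largest ratio of the list, with 77.4 against 10.5 CPM in section 1 and 149.0 against 5.54 CPM in section 2. Its log2 ratio was 3.53 (3.21 to 3.84). Of the 40 Matn1 UMIs in control members of section 2, 34 lay in 1 patch of 18 spots. The section 2 level of Matn1 thus rested mostly on that patch. Snorc, a membrane proteoglycan of chondrocytes, the link protein gene Hapln1, and Comp had log2 ratios of 2.497, 2.16 and 1.88. Acan, aggrecan, was less restricted, at 2146 against 1188 CPM in section 1 and 2403 against 719 CPM in section 2. Ucma, a small matrix protein of younger chondrocytes, and Col11a1 had log2 ratios of 0.44 (0.09 to 0.77) and 0.09 (-0.01 to 0.18).

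Of 12 tested mineralization genes, 4 were higher and none lower, with a median log2 ratio of 0.70. They were Ibsp, Spp1, Alpl and Smpd3, which encode mineral-binding matrix proteins, the alkaline phosphatase and a sphingomyelinase needed for mineralization. Ibsp had 1302 against 582 CPM in section 1 and 1799 against 415 CPM in section 2. None of the 4 was 2-fold higher in both sections among control spots alone, where their log2 ratios were 1.27, 0.99, 0.96 and 0.97. The osteoblast gene Bglap, osteocalcin, went the other way, with 800.5 against 1708 CPM in section 1 and 689.2 against 1630 CPM in section 2, and was lower in both comparisons. By the mean of log2(CPM + 1) over spots, which gives each spot the same weight, its difference was instead 0.23. Of 10 tested genes of the osteoblast list, 2 were higher and 1 lower, with a median log2 ratio of 0.48. Among control spots alone none of the 10 was higher and 1 was lower, with a median of 0.22. Against all other kept spots the 4 mineralization genes were thus higher and osteocalcin lower, while the osteoblast list went both ways.

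The transcription factors included Foxa3, which was higher at 27.9 against 3.81 CPM and 14.9 against 3.39 CPM. Its section 2 level in control members rested on only 4 UMIs. Sox6, a partner of Sox9, had a log2 ratio of 1.33 (1.07 to 1.59). Foxa2, a forkhead factor that acts in chondrocyte hypertrophy, had too few UMIs over the kept spots to be tested. It had 36 and 6 UMIs in members, with a log2 ratio of 3.69 (3.11 to 4.245). The minimum of gene UMIs counts all kept spots of a section, so the test of Foxa3 does not reflect more UMIs in members. Runx2, required for hypertrophy and bone formation, had 356.2 against 244.0 CPM in section 1 and 361.4 against 199.2 CPM in section 2. Its log2 ratio of 0.70 did not reach 2-fold, like those of Runx3 (0.50) and Sp7 (0.40). Of 13 tested factors, 2 were higher.

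Several of the 15 genes with the highest ratios belong to no list. Aldh1a3, which makes retinoic acid from retinaldehyde, had 234.8 against 34.6 CPM in section 1 and 208.6 against 26.5 CPM in section 2, with a log2 ratio of 2.92 (2.73 to 3.10). Among them were 2 coagulation genes: F5, factor V, had 54.0 against 7.55 CPM and 37.3 against 4.41 CPM. F13a1, a transglutaminase, had 456.9 against 110.4 CPM and 536.5 against 81.6 CPM. Wnk4, a kinase that controls ion transporters, Alox12, a lipoxygenase, and Lgr6, a receptor for R-spondins, had log2 ratios of 2.69 (2.42 to 2.95), 2.36 (1.99 to 2.72) and 2.27 (1.85 to 2.68). Fxyd3, a regulator of the sodium pump, had 2.47 but too few UMIs to be tested among control spots alone. Each of the other named genes was also 2-fold higher in both sections among control spots alone. The secreted proteins Rbp4 and Clec3a, which followed Col10a1 across spots, were higher too, at log2 ratios of 2.02 and 1.75.

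**Figure D3:**
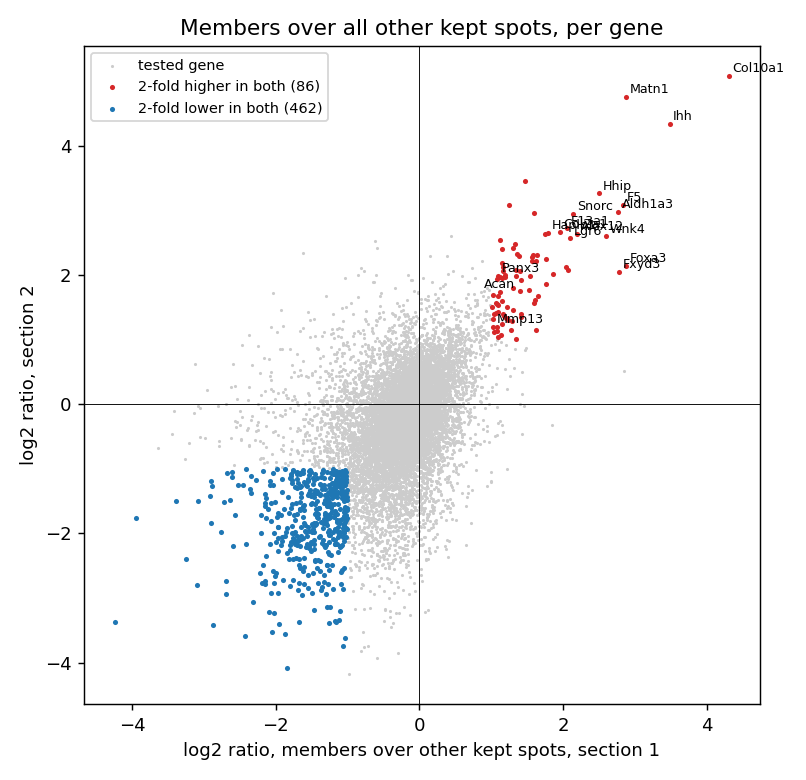
Log2 ratio of pooled CPM in members over all other kept spots, section 1 on the x axis and section 2 on the y axis, for each tested gene (grey), with the 86 genes at least 2-fold higher in both sections in red and the 462 at least 2-fold lower in blue. Col10a1, which was chosen for, Ihh and Matn1 lie farthest to the upper right, and Mmp13 lies near the 2-fold corner.

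The 10 genes with the lowest ratios were Chrne, Ppp1r3a, Popdc2, Fsd2, Capn3, Clcn1, Mlxipl, Lrtm1, Cmbl and Dupd1, several of them known from skeletal muscle, and each had at most 4 UMIs in members. The counting intervals of Mlxipl and Dupd1 did not leave out no change in each section. All 10 muscle genes were lower, with a median log2 ratio of -2.20, and 3 of 10 were lower among control spots alone, where the median was -1.23. Muscle RNA was not absent from members: the list summed to 8340 CPM in members and 26559 CPM elsewhere in section 1, and its gene with the most UMIs, Myh4, had 1916 and 2977 CPM in members of sections 1 and 2. The part of neighbouring muscle in the members' values was not tested. Dpt, a fibrous tissue gene, and Sfrp1, a WNT antagonist, were lower in both comparisons, with log2 ratios of -1.53 and -1.22.

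Few genes of the other lists passed 2-fold. None of 12 osteoclast, 14 collagen processing, 14 secretory stress, 10 proliferation, 7 cell cycle inhibitor, 8 BMP target or 12 TGF-β genes was 2-fold higher or lower in both sections, though among control spots alone the BMP target Id4 was lower, at a log2 ratio of -1.13. For the BMP target Id1 and the cell cycle inhibitor Cdkn1a the log2 ratios were 0.64 (0.51 to 0.77) and 1.06 (0.96 to 1.16). Among 11 endothelial genes none was higher and Tek was lower, with 2 lower among control spots alone, and Vegfa, which draws vessels in, had a log2 ratio of 0.80 (0.62 to 0.98). Of 15 WNT genes, the antagonist Frzb was higher and Sfrp1 lower. Of 8 macrophage genes, C1qa and Mrc1 were lower. Among control spots alone the calls of Frzb, C1qa and Mrc1 were lost, at log2 ratios of 1.27, -1.20 and -1.04. Of the feedback genes of ERK signaling, which Nf1 restrains, 1 of 14, Spred2, was lower and none higher, from 9 UMIs in members, and this call was lost under the added rule on counting intervals. Of 15 glycolysis and hypoxia genes Aldoa was lower, a call that was lost among control spots alone, at a log2 ratio of -0.72. Of 11 matrix protease genes Mmp13 was higher, and none of 4 osteocyte, 4 osteoclast signal or 14 BMP component genes passed. Lower genes numbered 2 of 4 erythroid, 1 of 6 granulocyte, 1 of 3 adipocyte and 1 of 4 tendon genes, with none higher. Among control spots alone 1 adipocyte and 1 tendon gene were lower, and no erythroid or granulocyte gene was. The added rule on counting intervals left 1 erythroid, 1 granulocyte and 1 tendon gene lower, and no adipocyte gene. Tnfsf11, which encodes the osteoclast-inducing ligand RANKL, had 83.7 against 33.2 CPM in section 1 and 48.4 against 26.7 CPM in section 2, and so was 2-fold higher in section 1 but not in section 2.

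Across all kept control spots, the 10 genes whose log2(CPM + 1) followed Col10a1 best, by the mean Pearson's r of both sections over 4618 genes, were Col2a1, Snorc, Comp, Hapln1, Matn3, Col9a3, Col9a1, Rbp4, Clec3a and Acan. The r of Col2a1 was 0.55 over 1655 spots in section 1 and 0.45 over 1695 spots in section 2, and that of Acan was 0.36 and 0.27. Spots share depth and neighbours, so these values describe the sections and carry no p.

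The members were not uniform. Of the 296, 105 (35.5%) were also among the 296 Col2a1-rich spots, those in the top 5% of kept spots by Col2a1 CPM. Of the same 296, 120 (40.5%) were among the 296 Ihh-rich spots, 63 (21.3%) among the Ibsp-rich, 43 (14.5%) among the Mmp13-rich and 7 (2.36%) among the Acp5-rich, and none was Ckm-rich. An Ihh UMI was seen in 120 control members, so the Ihh-rich set took in every member in which Ihh was seen. A member can belong to several of these sets. These sets, like the classes that follow, were chosen after values were seen. The control callus held 187 spots rich in Col10a1 only, 105 rich in both and 174 rich in Col2a1 only.

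Spots rich in both were the site of the highest Ihh and Matn1. Ihh had 181.4 CPM (140 to 231) there in section 1 and 199.3 (122 to 308) in section 2, against 100.8 (79.3 to 126) and 138.1 (87.5 to 207) in spots rich in Col10a1 only. In spots rich in Col2a1 only it had 39.9 (29.0 to 53.5) and 39.2 (24.6 to 59.3). The section 2 intervals of the first 2 classes overlap. Matn1 had 134.6 CPM (99.6 to 178) and 308.9 (210 to 438) in spots rich in both, and between 32.1 and 54.0 CPM in the other classes. Its section 2 value in spots rich in both rests mostly on 1 patch of 18 members. That patch held 34 of the 40 Matn1 UMIs of control members in section 2. Aldh1a3 had 480.9 and 348.8 CPM in spots rich in both, 115.6 and 126.1 in spots rich in Col10a1 only and 42.6 and 42.7 in spots rich in Col2a1 only. All 3 genes thus had their highest level where the collagens overlapped, apart from the overlapping Ihh intervals of section 2. For Matn1 in section 2 this rests mostly on that 1 patch.

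Spots rich in Col10a1 only had higher Mmp13, Dmp1, Mmp9 and Acp5 than spots rich in both collagens, and not all late genes followed. Mmp13 had 997.7 CPM (927 to 1072) in section 1 and 942.7 (801 to 1102) in section 2, against 703.4 (620 to 795) and 299.0 (202 to 427) in spots rich in both. Dmp1, a mineral-regulating protein of osteocytes and late chondrocytes, had 1214 and 1459 CPM against 475.4 and 388.6. Mmp9, a gelatinase of osteoclasts, had 3156 and 2228 CPM against 890.3 and 597.9, and Acp5, the osteoclast phosphatase TRAP, had 3044 and 2444 CPM against 1204 and 667.7. Both osteoclast genes thus divided the members, though neither reached 2-fold between members and all other kept spots. Tnfsf11 had 108.9 CPM (86.5 to 135) against 33.0 (17.0 to 57.6) in section 1 and 66.0 (33.0 to 118) against 19.9 (2.41 to 72.0) in section 2, where the intervals overlap. The alkaline phosphatase gene Alpl went the other way in value, with 1408 CPM (1324 to 1496) against 1506 (1382 to 1637) in section 1 and 1201 (1040.2 to 1379) against 1565 (1329 to 1829) in section 2, and its intervals overlap in both. Panx3 had 177.5 against 178.6 CPM in section 1 and 180.1 against 229.2 CPM in section 2, and Vegfa had 201.7 against 214.3 CPM and 180.1 against 129.5 CPM, again with overlapping intervals. Acan and Sox9 had their highest levels in spots rich in Col2a1 only, with 6603 and 6246 CPM for Acan, against 1248 and 1717 CPM in spots rich in Col10a1 only.

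**Figure D4:**
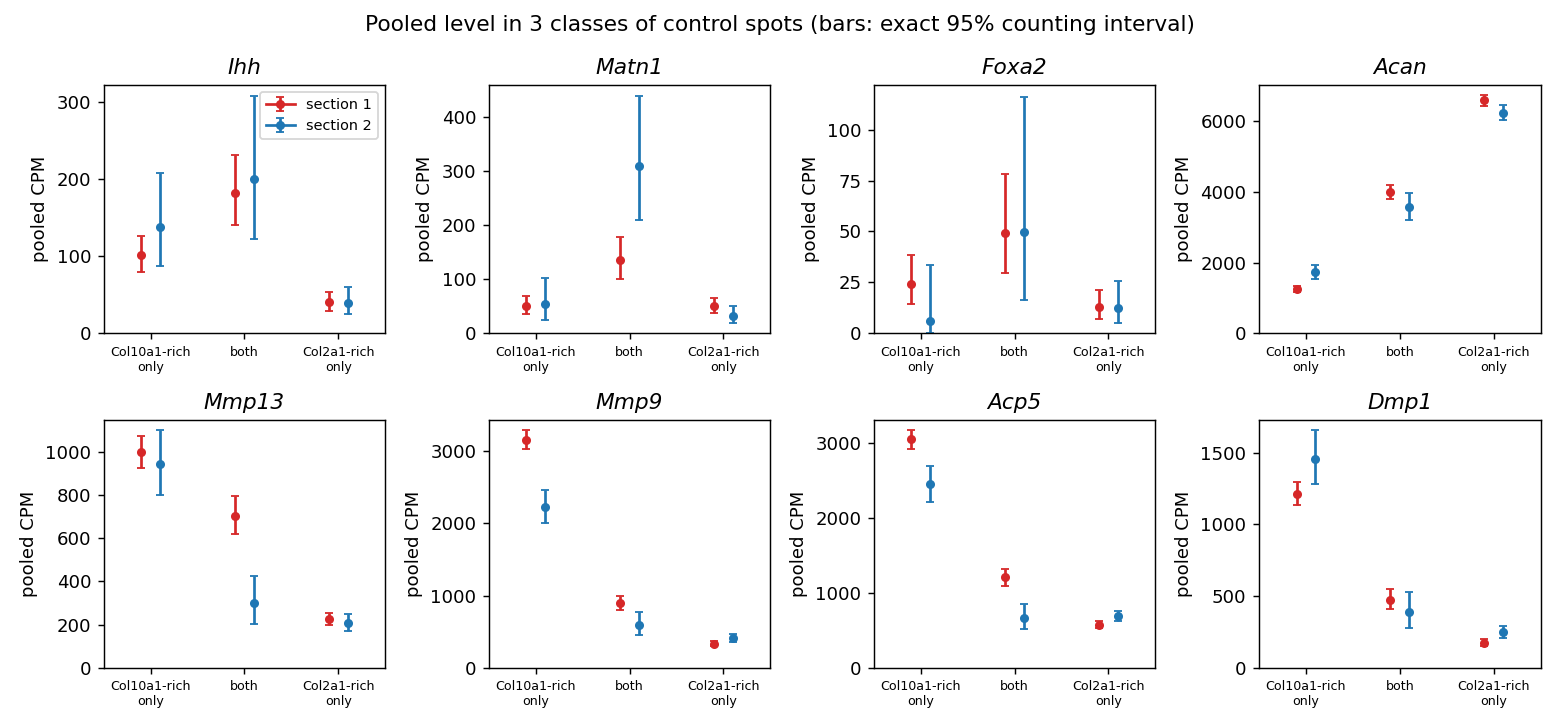
Pooled CPM of 8 genes in control spots rich in Col10a1 only, in both collagens and in Col2a1 only, by section (points, with exact 95% counting intervals as bars). Ihh, Matn1 and Foxa2 have their highest values in the middle class in both sections, with overlapping intervals for Ihh and Foxa2 in section 2, Acan in the right class, and Mmp13, Mmp9, Acp5 and Dmp1 in the left class.

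Against the 174 control spots rich in Col2a1 only, 122 of 2469 tested genes were higher in control members (4.94%) and 65 lower (2.63%). Beside Col10a1, the genes with the highest ratios were Mmp9, Irx5, Aldh1a3, Ifitm5, Mt3, Lrp4, Dmp1, Sox4 and Fam20c. Mmp9 had a log2 ratio of 2.65 (2.53 to 2.78), and Fam20c, the kinase that phosphorylates secreted mineral-binding proteins, had 467.7 against 96.9 CPM in section 1 and 415.9 against 110.4 CPM in section 2. Ihh and Mmp13 were higher as well, at log2 ratios of 1.76 (1.34 to 2.18) and 1.98 (1.81 to 2.15). The lowest ratios were those of Ucma, Papss2, Scrg1, C1qtnf3, Slc16a3, Rtl3, Slc26a2, Cnmd, Ncmap and Xylt1. Papss2, Slc26a2 and Xylt1 act in sulfate uptake and activation and in proteoglycan chain synthesis. Papss2 had 22.6 against 154.0 CPM in section 1 and 30.0 against 174.5 CPM in section 2, and the sulfate transporter gene Slc26a2 had 28.0 against 120.5 CPM and 30.0 against 112.2 CPM. The receptor Fgfr3, which slows chondrocyte proliferation, was also lower in members, at 260.9 against 600.6 CPM and 213.6 against 584.2 CPM.

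Levels around the members were followed in control spots by the number of grid steps of 100 µm to the nearest member. Ihh dropped at once, from 127.3 CPM (107 to 150) in members of section 1 to 40.7 (32.0 to 51.1) at 1 step, 13.6 at 2 steps and 4.27 at 7 or more. In section 2 it went from 161.1 (117 to 217) to 42.2 (29.2 to 59.0), 13.7 and 4.74. Gli1 followed another course: in section 1 it had 78.5 CPM (62.9 to 96.9) in members, 95.05 at 1 step, 110.1 (96.2 to 125) at 2 steps, 112.6 (97.9 to 129) at 3 and 31.6 (24.8 to 39.7) at 7 or more. In section 2 it had 108.7 (72.8 to 156), 139.1, 160.8 (138 to 186), 112.6 (94.0 to 134) and, at 7 or more, 43.2 (37.9 to 49.1). The highest Gli1 level thus lay outside the members, at 3 steps in section 1 and 2 steps in section 2, though the interval in members of section 2 overlaps that at 2 steps, and in section 1 those at 2 and 3 steps overlap each other. By the mean of log2(CPM + 1) over spots, an alternative chosen after seeing the data, Gli1 was highest at 3 steps in section 1, at 3.95, and at 1 step in section 2, at 3.72. Ptch1 was highest at 1 step in both sections, with 222.1 CPM (201 to 245) and 293.1 (257 to 333), but its intervals overlap those in members, 184 to 239 and 195 to 319. Hhip was highest in members and had 49.97 and 42.2 CPM at 1 step.

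Mmp13 in pooled CPM was highest in members, going from 901.0 to 653.9 CPM at 1 step and 315.4 at 7 or more in section 1, and from 700.6 to 589.9 and 340.9 in section 2. By the mean of log2(CPM + 1) it was higher at 1 step than in members of section 2, at 7.78 against 6.63, and not in section 1, at 7.71 against 7.97. Bglap in pooled CPM was lowest in members and rose outward, from 795.4 CPM to 2341 at 7 or more steps in section 1 and from 689.4 to 2363 in section 2, with its peak of 2751 at 4 to 6 steps there. By the mean of log2(CPM + 1) this course held in section 2, from 7.80 in members to 9.62 at 4 to 6 steps, but not in section 1, where Bglap had 8.84 in members, 9.30 at 2 steps, 8.82 at 4 to 6 and 9.47 at 7 or more. Acp5 in pooled CPM was lower in members than 1 step away, at 2439 against 2861 CPM in section 1 and 1776 against 2253 CPM in section 2, and by the mean of log2(CPM + 1) this held in section 2, at 9.47 against 9.75, and turned in section 1, at 10.4 against 10.2. Postn, made by periosteal and fibrous cells, had 378.3 and 408.4 CPM in members and 959.0 and 1068 CPM at 4 to 6 steps. Ptch1 and Gli1 thus stayed high for some steps beyond the ligand. Postn had its lowest value in members by both measures in both sections, and Bglap did so by both only in section 2. Spots at 1 step had a median of 7579.5 UMIs in section 1 and 6857.75 in section 2, against 4484 and 3452 in members.

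**Figure D5:**
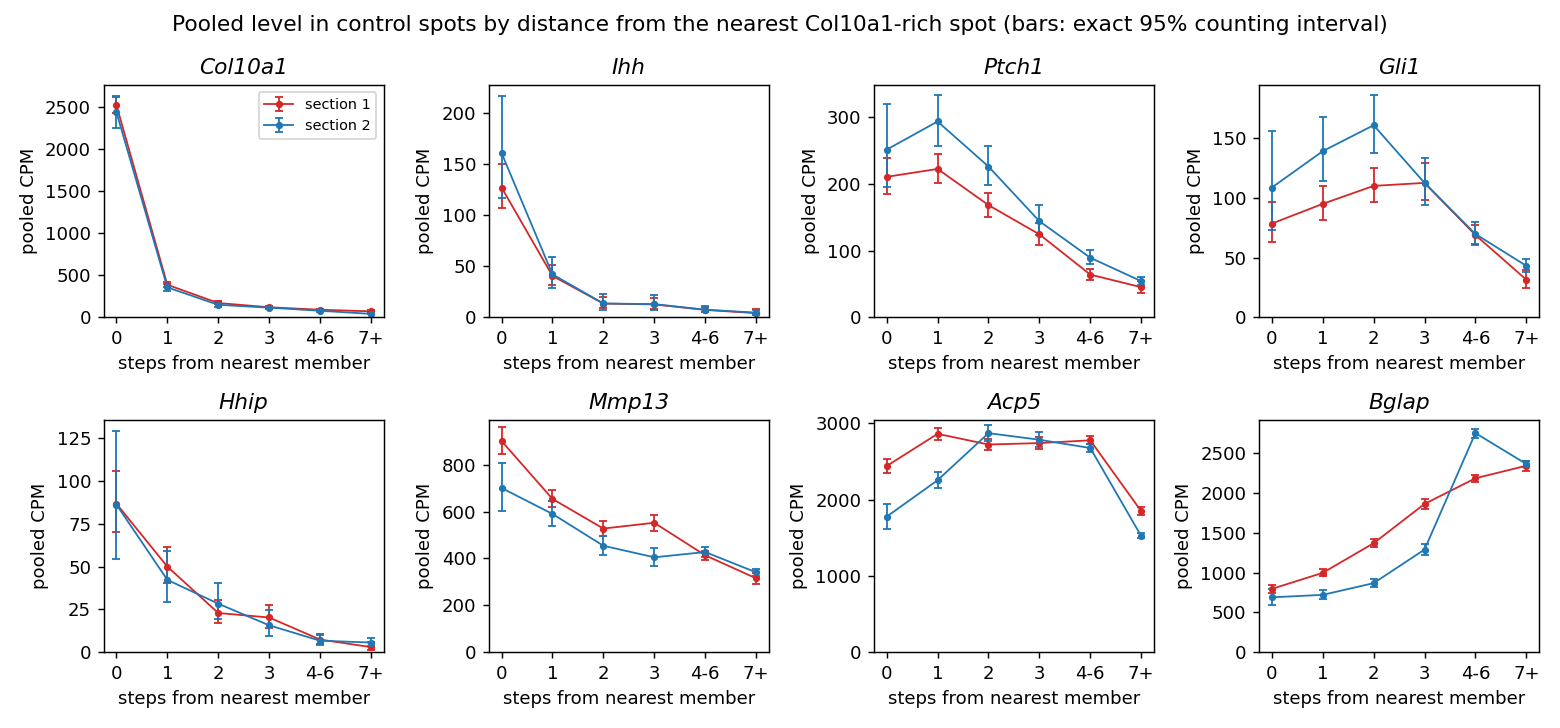
Pooled CPM of 8 genes in control spots by steps from the nearest member (x axis, 0 being the members and 1 step 100 µm), in section 1 (red) and section 2 (blue), with exact 95% counting intervals. Col10a1, Ihh and Hhip are highest at 0, Ptch1 at 1, Gli1 at 2 or 3, and Bglap at 4 or more.

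Levels in members differed with the distance to the nearest Acp5-rich spot. The median control member lay 3 steps from the nearest Acp5-rich spot in section 1 and 2 steps in section 2, against 7 and 3.5 steps for spots rich in Col2a1 only and 5 and 5 for all other kept control spots, most of the Acp5-rich spots themselves included. The share within 1 step went both ways. It was 15.2% of members against 23.1% of all other kept control spots in section 1, and 27.9% against 19.0% in section 2. In section 2 the upper quartile was 11 steps in members and 8 in the others. Members at 0 to 1 step had 1527 CPM of Mmp13 in section 1, those at 2 to 3 steps 1079 and those farther 497.6. In section 2 the levels were 1183, 552.4 and 402.1 CPM, over 17, 19 and 25 spots. Col2a1 went the other way, with 52472, 88494 and 141305 CPM in section 1 and 88265, 120020.0 and 128954 CPM in section 2. Matn1 had 10.2, 38.0 and 138.7 CPM in section 1 and 37.0, 27.6 and 441.0 CPM in section 2. The Matn1 intervals at 0 to 1 and 2 to 3 steps overlap in both sections. Ihh had 71.3 CPM (38.96 to 119.6) beside Acp5-rich spots in section 1, against 156.8 (121 to 199.5) at 2 to 3 steps and 124.4 (95.2 to 159.8) at 4 or more, and its intervals in section 2 all overlap. The 34 Matn1 UMIs at 4 or more steps in section 2 equal in number those of the patch of 18 members there, which had 597.1 CPM, against 43.6 and 43.4 CPM in the other patches of that section, so that its value rests mostly on 1 patch. Members near Acp5-rich spots thus had more Mmp13, and those far from them more Col2a1, in both sections.

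The Nf1Postn callus held little Col10a1. Its kept spots had 43.8 CPM (37.0 to 51.5) in section 1 and 32.5 (28.1 to 37.5) in section 2, against 344.4 (335 to 354) and 143.9 (137 to 151) in the control callus. In the Ckm-rich spots of the Nf1Postn callus, which are muscle by that gene, Col10a1 had 48.0 CPM (34.3 to 65.3), so that the level over the Nf1Postn callus was no higher than the level in its muscle. After thinning, 4.28% of kept Nf1Postn spots (3.53 to 5.14) and 2.71% of its Ckm-rich spots (1.18 to 5.27) kept a Col10a1 UMI, at median depths of 2888 and 2652.5 UMIs. Ihh had 3.00 and 4.24 CPM in the Nf1Postn callus and 22.9 and 13.1 CPM in the control callus. Muscle took a larger part of the Nf1Postn spots, with 12127 and 22037 CPM of Ckm against 2237 and 3262 CPM in control, and its part in these differences was not tested.

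Cartilage with less Col10a1 than control spots rich in Col2a1 only was present in 1 Nf1Postn section. Ihh, Mmp13, Pth1r and Panx3 were not lower there than in those control spots. Section 2 had 17 Col2a1-rich Nf1Postn spots and section 1 had none. With 217139 CPM of Col2a1 (214120.0 to 220189) they came near the 70 control spots rich in Col2a1 only of that section, which had 226570.0 CPM (225327 to 227819). Of the 110 Col2a1-rich spots of section 2, 23 control spots were also members and were left out of that control set. The values below are thus not set against all control cartilage, and Ihh was higher in control spots rich in both collagens than in those rich in Col2a1 only. Col10a1 had 77.01 CPM (31.0 to 159) in them, from 7 UMIs, and 267.2 CPM (226 to 314) in the control spots, with intervals that do not overlap. Ihh had 66.0 CPM (24.2 to 144) against 39.2 (24.6 to 59.3), with overlapping intervals. Mmp13 was higher, at 385.0 CPM (268 to 535) against 206.6 (171 to 248), and so was Pth1r, at 1089 CPM (885 to 1326) against 705.3 (638 to 778). Panx3 had 385.0 CPM (268 to 535) against 240.4 (202 to 285), with overlapping intervals. Ibsp was also higher: it had 1540.2 CPM (1296 to 1817) against 445.3 (392 to 504), and Alpl had 1496 (1255 to 1769.8) against 849.6 (775 to 929). Spp1 went the other way in value, at 1078 CPM (875 to 1314) against 1386 (1290 to 1487), with overlapping intervals. Acan had 2002 CPM (1722 to 2315) against 6246 (6041 to 6457), and Ucma had 22.0 (2.66 to 79.5) against 320.6 (275 to 371). These spots lie in 1 section of 1 callus, were chosen after the values were seen, and are Nf1Postn by the deposited label. The paper says that differing geometry in the block let control and mutant callus be told apart. How single spots were assigned is not given in the sources used here.

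Between control and Nf1Postn members only 759 genes could be tested, since the 4 Nf1Postn spots held few UMIs: 7 genes were higher in control members (0.922%) and 46 lower (6.06%). Both counts rested on the scaling, since with TMM factors, which even out the bulk of genes between groups, 267 genes were higher and 0 lower. In section 2 the Nf1Postn side was a single spot of 1516 UMIs, in which 1 UMI already gives a high CPM, so that the call of a gene was largely set by whether it was seen there. The counts are given as values, and no gene is read from them.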

How the data were processed

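The authors aligned the reads to mm39 with Space Ranger 1.3.0 (submitters' processing notes), exported them from Partek Flow and deposited raw UMI tables. The deposited values were treated like expected counts, made by the authors with no normalization, since 9 gene names held values that are not whole, and they were rounded for counting intervals. The row without a gene name (6.8e-05% and 3.8e-05% of UMIs) was dropped. Genotype came from the deposited label of each spot, which 5 spots lacked. The authors told the calluses apart by their differing geometry in the block, and how single spots were assigned is not given in the sources used here. The sections share 2711 barcodes, as slides carry the same barcode list. Counts were pooled per group of spots and section as CPM. Intervals are exact Poisson or binomial, and those of ratios conditional binomial. A group at 0 was given 3 counts for a bound. No doublet caller and no clustering was used, since a spot is a region.

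Genes were named by rule: the 15 highest and 10 lowest ratios, the 10 that followed Col10a1 best, and listed genes. The members and lists were chosen with earlier results of these data known. The rich sets, classes, distances to Acp5-rich spots and the Nf1Postn cartilage spots were chosen after values were seen. Alternatives were other depth minimums, other shares of spots, other scalings, control spots alone and each section left out. Code was tested on simulated data. The 250-base windows came from GRCm39 with GENCODE. Tools were Python 3.11.15, numpy 2.4.6, scipy 1.17.1, pandas 2.3.3, matplotlib 3.10.9, and R 4.3.3 with edgeR 4.0.16 for TMM (trimmed mean of M values) factors only.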

Additional observations from a re-analysis of the deposited data

How the results depend on the processing

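The share of members in the control callus, 8.72%, was 4.42% with the top 2.5% of spots, 15.5% with the top 10%, 18.8% when all spots with a Col10a1 UMI after thinning to 1000 UMIs were taken, and 7.70% with only members of 5 or more Col10a1 UMIs, an alternative chosen after seeing the data. It was 3.60% without section 1 and 14.0% without section 2. The Nf1Postn share, 0.156%, was 0.602% at a minimum of 500 UMIs per spot, 0% at 2000 UMIs, with the top 2.5% and with 5 or more Col10a1 UMIs, 2.84% with the top 10%, 0.973% with the top 5% of each section and 4.28% after thinning. In each of these settings the control share was the larger. The 86 genes higher in members became 291 with no minimum of gene UMIs, 179 by the mean of log2(CPM + 1) over spots, and 136 to 474 in a single section. The 462 lower genes became 293 with the top 2.5%, 286 with the top 10%, 249 among control spots alone, 250 with the added rule on counting intervals (85 when both were applied), and 1187 to 1954 in a single section. The ratio of Bglap changed its sign by the mean of log2(CPM + 1), from -1.10 to 0.23. Between control and Nf1Postn members, TMM factors gave 267 higher and 0 lower genes in place of 7 and 46, a minimum of 10 UMIs gave 180 lower, thinning gave 9 lower, and a single section gave 10 to 51 higher and 184 to 916 lower, so that both counts depended on these settings. The log2 ratio of 1 step over members was 0.14 for the osteoclast list, 0.47 with the top 2.5%, 0.026 with the top 10% and 0.13 to 0.35 in a single section. For the cartilage matrix list it was -0.47, -0.40 with the top 2.5%, -0.74 with the top 10% and -0.56 to -0.44 in a single section. The share of members in patches of 5 or more, 87.5%, was 81.1% with the top 2.5%, 71.1% with the top 10% and 67.7 to 92.7% in a single section. The top share that is taken sets the member shares by construction, and dropping 1 section or the minimum of gene UMIs can only add genes. The cause of the other changes was not tested. No paired analysis was possible because each genotype is 1 callus and both genotypes lie in the same 2 sections, with no test to block. The 4 Nf1Postn members and the shallow Nf1Postn spots give little depth for low genes.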

Other observations

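The 6 patches of 5 or more touching members differed among themselves beside their Col10a1. In section 1, the patch of 69 spots had 1386 CPM of Mmp13, against 703.3 in that of 85 spots and 768.9 in that of 63. The same patch had 183.5 CPM of Ihh, from 54 UMIs, against 120.6 CPM from 53 UMIs and 100.8 CPM from 32 UMIs in those of 85 and 63 spots. For Acp5 it had 3319 CPM, against 1582 and 2877 CPM. In section 2, the patch of 18 spots had 597.1 CPM of Matn1, and the others of that section had 43.6 and 43.4. Its Acp5 level was 421.5 CPM, against 3159 and 1940.4 CPM in the other patches of section 2. Each patch lies in 1 section, so no replicate stands behind these values, and the position of a patch in the callus and its content cannot be told apart.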
